A study of Homo sapiens with 6 samples.

Results

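The genes of the proteasome were followed in the human neuroblastoma line SH-SY5Y, an established, neuron-like cell line, after exposure to the organochlorine insecticide endosulfan. They were chosen by symbol: every probe set that names exactly 1 gene whose symbol starts with PSMA, PSMB, PSMC, PSMD, PSME, PSMF or PSMG and a digit. This gave 112 probe sets for 46 of the 18132 genes on the array. Of these, 44 encode subunits, regulators or assembly factors of the proteasome. The remaining 2, PSMC3IP (a partner of meiotic recombinases) and PSME3IP1 (a protein that binds PA28 gamma), share only the start of the symbol and are kept in the counts. PSMA6, PSMC5, PSMD7 and PSMD13 were not analysed here. Each gene is represented by its brightest probe set, judged by the mean of the 6 arrays, and 33 of the 46 genes had several to choose from.

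The 6 arrays comprised 3 of cells given 3 µM endosulfan for 24 h and 3 of control cells, all in the same serum-containing medium. Whether the control cells were given the solvent is not stated in the labels. The labels call the arrays biological replicates but name no culture or day, so p-values measure only the spread between these samples. Each value is a log2 RMA value, a background-corrected and quantile-normalized signal of a probe set. Signals of different probe sets depend on their probes, so levels are compared between arrays and not between genes. A difference is given as the log2 fold change, the endosulfan mean minus the control mean.

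The proteasome is the large protease that degrades ubiquitin-tagged proteins in the cytosol and nucleus. Its 20S core is a barrel of outer alpha rings and inner beta rings, and the proteolytic sites lie on the beta subunits PSMB5, PSMB6 and PSMB7. The 19S regulatory particle caps the barrel: its base holds a ring of ATPases that unfold substrates, and its lid removes ubiquitin. In cells exposed to interferon, PSMB8, PSMB9 and PSMB10 replace the constitutive catalytic subunits to form the immunoproteasome, which favours peptides for antigen presentation, and the PA28 activator of PSME1 and PSME2 is induced with them. Neurons and neuron-like cells depend on the proteasome for turnover of synaptic and misfolded proteins.

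The array medians lay between 4.89 and 4.94, and their number limits the precision. The bacterial poly-A transcripts spiked into the RNA before labelling were at 6.19, 7.83 and 5.84 in control 1, 2 and 3 and at 7.90, 7.82 and 8.90 in endosulfan 1, 2 and 3 (mean of their probe sets, log2). Their part in the results that follow was not tested beyond a fit with this level as a covariate. Markers of sympathetic neuroblasts had high signals, for example GATA2 at a mean of 13.13 in control and 13.19 in endosulfan arrays. ISL1, ELAVL4, STMN2 and GATA3 were lower without overlap, at log2 fold changes of -1.33, -1.09, -1.05 and -0.35. The other markers measured lay between -0.18 and 0.27, with overlapping groups. The summed linear signal of the 11 neuroblastoma markers measured, of 12 listed, was 41536 to 44272 in control and 37158 to 39574 in endosulfan arrays, so these ranges did not overlap, and 4 of the 11 were lower at an unadjusted limma p below 0.05, against 10.9% of all genes. Its part in the results was not tested. That of the 7 haematopoietic markers measured, of 8 listed, was 121 to 129 in control and 127 to 136 in endosulfan arrays, and the arrays' ranges overlapped. These genes mark blood cells, which carry the immunoproteasome constitutively. Of the 7, 6 lay on the higher side, from CD2 at 0.02 to CD14 at 0.22, PTPRC was at -0.08, and all 7 had overlapping groups. The GAPDH 3' minus 5' signal, a measure of RNA integrity and labelling, was 0.81, 0.74 and 0.70 in control 1, 2 and 3 and 0.89, 0.82 and 0.82 in endosulfan 1, 2 and 3 (log2). The groups did not overlap, with a two-sided exact permutation p of 0.1, the smallest that 3 arrays against 3 allow, and its part in the group differences that follow was not tested.

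No proteasome gene passed the test. With limma over 49293 probe sets, 0 of the 112 proteasome probe sets had a Benjamini-Hochberg adjusted p below 0.05, where 0.00811% of all probe sets did, and the lowest adjusted p among them was 0.215. Over all genes 0.00552% passed. At an unadjusted p below 0.05, 9 of the 112 were higher and 6 lower, against 6.3% and 9.21% of all probe sets. At gene level 4 of 46 were higher at that limit, namely PSMD9, PSMB10, PSMG4 and PSME3, and 0 were lower, against 7.45% and 10.9% of all genes. In total 8.7% of the proteasome genes reached an unadjusted p below 0.05, compared with 18.3% of all genes. Groups that did not overlap were found in 16 probe sets with higher and 6 with lower values in endosulfan, against 11.5% and 9.24% of all probe sets. At gene level they were found in 6 with higher values (PSMD9, PSMB10, PSMG4, PSME3, PSMA7 and PSMB5) and 1 with lower values (PSMB7), in total 15.2% against 22.6% of all genes. By sign alone 25 genes lay on the higher and 21 on the lower side, against 60.2% and 39.8% of all genes, and 61 and 51 probe sets, against 60.1% and 39.9%. The median log2 fold change was 0.02 over the 46 genes and 0.05 over all genes.

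The classes are given by their range and median, with no test between them. The 7 constitutive beta ring genes lay between -0.10 and 0.24, with a median of 0.06. The 7 alpha ring genes measured lay between -0.70 and 0.39, with a median of 0.01. That median is the value of PSMA8, a dim gene with a mean signal of 3.00. The 5 ATPases measured had a median of -0.36 and the 3 other base subunits of -0.04. The 6 lid genes measured had a median of -0.04, the 5 activator and inhibitor genes of 0.09 and the 7 assembly chaperones of -0.02. The 4 inducible or tissue-specific beta genes all lay on the higher side, with a median of 0.30. Of these, PSMB8, PSMB9 and PSMB11 were dim, with mean signals of 5.00, 4.65 and 3.74.

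**Figure D1:**
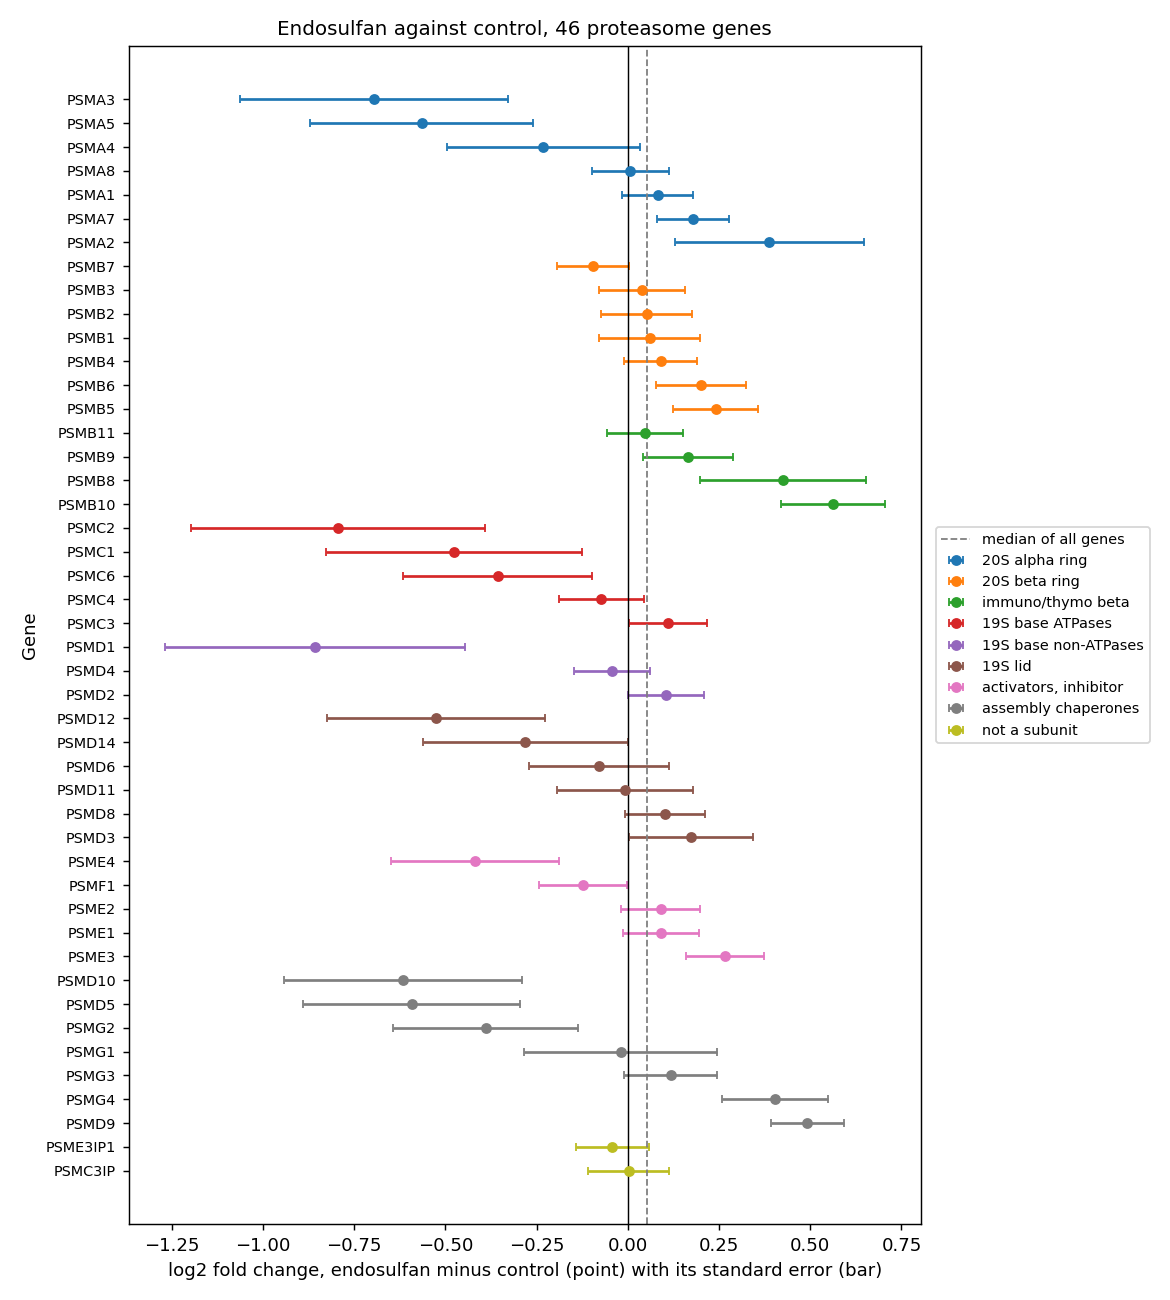
Log2 fold change of each of the 46 genes (x axis, endosulfan minus control, point with its standard error as a bar), grouped and coloured by class, with the median of all genes as a dashed line. The beta ring genes sit between -0.10 and 0.24 with short bars, while base, lid, alpha ring and chaperone genes reach down to -0.86 with long bars.

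PSMB10, the immunoproteasome subunit with trypsin-like activity, had the clearest separation among the catalytic subunits. It was at 8.62, 9.13 and 8.92 in control 1, 2 and 3 and at 9.52, 9.44 and 9.40 in endosulfan 1, 2 and 3. Every endosulfan array thus lay above every control array. The difference was 1.48-fold, a log2 fold change of 0.56 ± 0.14 (SE), and its adjusted p was 0.215 (limma, Benjamini-Hochberg). All 3 of its probe sets had groups that did not overlap, with log2 fold changes from 0.52 to 0.56.

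Upstream sequence shared by members was read from the RefSeq promoter table of GRCh38.p14, which held 49 windows for 40 of the 46 genes. The 250 bases before each start were searched on both strands. The core of the interferon-stimulated response element, GAAA followed after 2 bases by a second GAAA, is shown because PSMB10, PSMG4 and PSME2 carry the same letters at it, close to the start. The motif is in capitals, and each stretch is written in the direction of its gene.

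PSMB10 (chr16:67936851-67936891, minus strand): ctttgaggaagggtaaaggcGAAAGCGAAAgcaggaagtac
PSMG4 (chr6:3258894-3258943, plus strand): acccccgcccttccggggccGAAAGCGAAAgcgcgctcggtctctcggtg
PSME2 (chr14:24146611-24146658, minus strand): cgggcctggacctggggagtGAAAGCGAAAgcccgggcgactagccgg
PSMB4 (chr1:151399485-151399534, plus strand): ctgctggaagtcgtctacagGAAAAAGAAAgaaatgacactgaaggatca
PSMA4 (chr15:78540155-78540194, plus strand): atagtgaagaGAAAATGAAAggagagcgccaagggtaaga

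The motif begins 21, 33 and 28 bases before the start of PSMB10, PSMG4 and PSME2, 68 before that of PSMB4 and 240 before that of PSMA4. It was found in 5 of the 49 windows, or 10.2%, and in 3.02% of all 35116 windows of the table. The log2 fold changes of these 5 genes were 0.56, 0.40, 0.09, 0.09 and -0.23 in the order printed, so the letters were shared by genes whose groups did not overlap (PSMB10, PSMG4) and genes whose groups did. The match is a description of sequence and not evidence of a bound factor.

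PSMB7, the constitutive partner of PSMB10, lay the other way by a small margin. It was at 12.16, 12.10 and 12.25 in control and at 12.09, 12.05 and 12.08 in endosulfan arrays. The groups did not overlap, but the log2 fold change of -0.10 ± 0.10 (SE) was no larger than its error, and 3 of its 5 probe sets had the opposite sign. The log2 fold change of PSMB10 exceeded that of PSMB7 by 0.66, a description of the pair with no test.

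PSMB8 and PSMB9, whose genes lie beside those of the peptide transporter TAP in the major histocompatibility complex, had overlapping groups on their brightest probe sets. PSMB8, which takes the place of the chymotrypsin-like subunit, was at 4.77, 4.82 and 4.77 in control and at 5.78, 4.82 and 5.04 in endosulfan arrays. Endosulfan 1 alone carried most of the difference, and endosulfan 2 lay among the controls. Its log2 fold change of 0.43 ± 0.23 (SE) became 0.14 without endosulfan 1. PSMB9, which takes the place of the caspase-like subunit, was at 4.36, 4.64 and 4.70 in control and at 4.77, 4.63 and 4.79 in endosulfan arrays. These groups overlapped, at a log2 fold change of 0.16 ± 0.12 (SE). The 2 dimmer probe sets of PSMB9 had mean signals of 3.89 and 2.72, below the array medians. Their groups did not overlap, with higher values in endosulfan arrays, at log2 fold changes of 0.25 and 0.27. The log2 fold change of the brightest probe set of PSMB9 became 0.06 without control 1. The brightest probe sets of PSMB8 and PSMB9 lay near the array medians and their dimmer ones below them, and signal above background was not judged.

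Of their constitutive partners, PSMB5, the chymotrypsin-like subunit, was at 11.86, 12.16 and 12.10 in control and at 12.34, 12.27 and 12.23 in endosulfan arrays. Its groups did not overlap, the log2 fold change was 0.24 ± 0.12 (SE), and all 5 of its probe sets lay between 0.23 and 0.28. PSMB6, the caspase-like subunit, was at 11.81, 12.19 and 12.05 in control and at 12.25, 12.22 and 12.18 in endosulfan arrays. Control 2 lay above endosulfan 3, so the groups overlapped, with a log2 fold change of 0.20 ± 0.12 (SE). In both genes control 1 was the lowest array, and without it the log2 fold changes were 0.15 and 0.10. The log2 fold change of PSMB8 exceeded that of PSMB5 by 0.18, and that of PSMB9 minus that of PSMB6 was -0.04, both without a test.

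**Figure D2:**
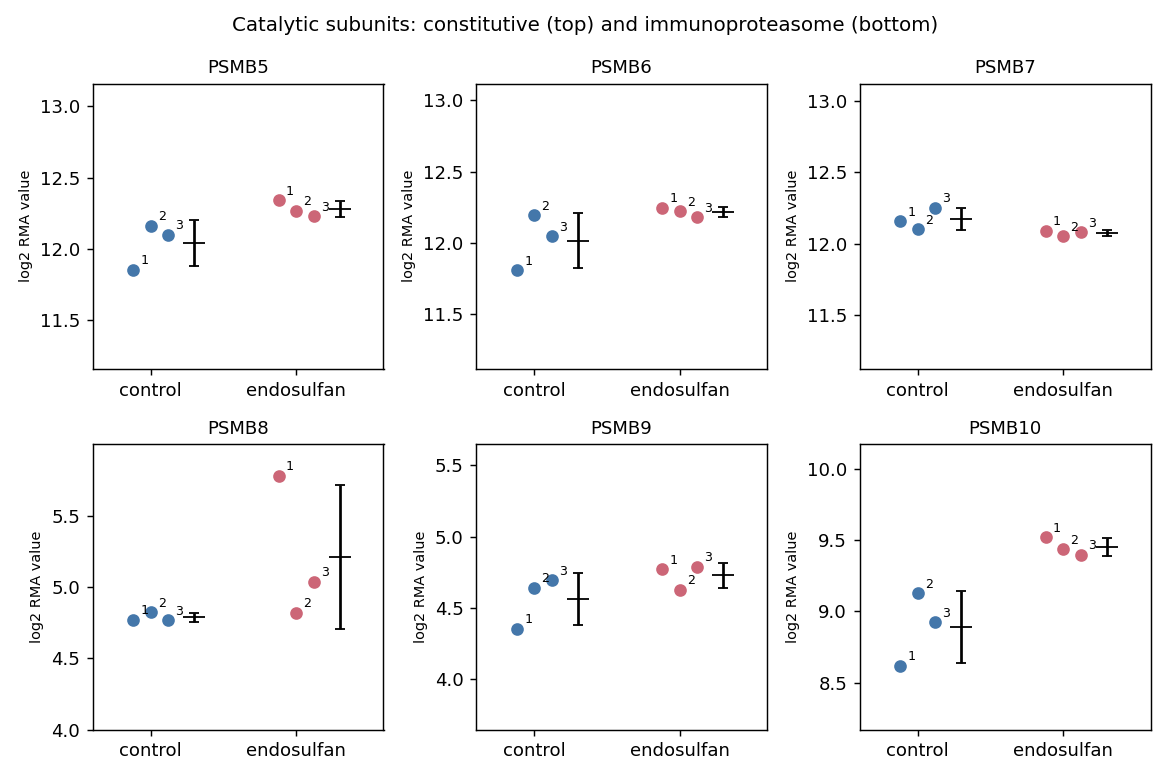
Log2 RMA value (y axis, each panel spanning 2 units) of the constitutive catalytic subunits (top) and the immunoproteasome subunits (bottom) in control and endosulfan arrays, numbered by replicate, with mean and SD as black bars. PSMB10 has all endosulfan arrays at 9.40 or above and all controls at 9.13 or below, while endosulfan 1 stands apart for PSMB8 at 5.78.

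The other core subunits are structural. Of the beta ring, PSMB1, PSMB2, PSMB3 and PSMB4 had log2 fold changes from 0.04 to 0.09. Of the alpha ring, PSMA1 and PSMA7 were at 0.08 and 0.18, and the groups of PSMA7 did not overlap. The testis subunit PSMA8 and the thymus subunit PSMB11 had mean signals of 3.00 and 3.74, below the array medians, and log2 fold changes of 0.01 and 0.05.

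PSMA3, an alpha ring subunit, was at 7.14, 6.42 and 6.98 in control and at 5.45, 6.99 and 6.02 in endosulfan arrays. Endosulfan 1 was the lowest of all and endosulfan 2 the second highest, so the groups overlapped. The log2 fold change was -0.70 ± 0.37 (SE). PSMA5 was at 9.35, 8.39 and 8.45 in control and at 7.78, 8.68 and 8.04 in endosulfan arrays, with the same order among the endosulfan arrays and a log2 fold change of -0.57 ± 0.31 (SE). PSMA4 and PSMA2 were at -0.23 and 0.39, and in both the groups overlapped.

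In the 19S base, PSMC2, one of the ATPases, was at 7.9996, 6.83 and 6.98 in control and at 5.84, 7.24 and 6.35 in endosulfan arrays. Control 1 lay more than 1 unit above the other controls, and endosulfan 2 lay above control 2 and control 3. The log2 fold change was -0.80 ± 0.40 (SE). PSMC1 and PSMC6 were at -0.48 and -0.36, PSMC4 at -0.07 and PSMC3 at 0.11, all with overlapping groups. PSMD1, the large scaffold subunit of the base, was at 9.0017, 7.71 and 7.83 in control and at 6.80, 8.06 and 7.10 in endosulfan arrays. This was the widest difference of the 46 genes, a 1.81-fold one with a log2 fold change of -0.86 ± 0.41 (SE), and the groups overlapped because of endosulfan 2. The other scaffold subunit PSMD2 was at 0.11 and the ubiquitin receptor PSMD4 at -0.04.

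In the lid, PSMD12 was at 9.04, 8.75 and 8.72 in control and at 7.63, 8.97 and 8.33 in endosulfan arrays. Endosulfan 2 again lay among the controls, and the log2 fold change was -0.53 ± 0.30 (SE). All 4 of its probe sets lay on the lower side, between -0.69 and -0.45. PSMD14, the deubiquitinase of the lid, was at -0.28 ± 0.28 (SE). PSMD6, PSMD11, PSMD8 and PSMD3 were at -0.08, -0.01, 0.10 and 0.17, with overlapping groups. Of the 14 genes measured in the base and lid together, 0 had groups that did not overlap on the brightest probe set. Of all genes, 12.4% were higher and 10.2% lower without overlap. A dimmer probe set of PSMC2 was lower without overlap, at -0.63 ± 0.22 (SE), and its dimmest was at 0.10.

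Among the activators, PSME3, which encodes PA28 gamma, a nuclear activator that is not part of the interferon response, was at 8.44, 8.39 and 8.24 in control and at 8.72, 8.61 and 8.55 in endosulfan arrays. The groups did not overlap, with a log2 fold change of 0.27 ± 0.11 (SE) and an adjusted p (limma, Benjamini-Hochberg) of 0.302. Its other 2 probe sets lay the other way, each at -0.28, and 1 of them also had groups that did not overlap, so the gene has no single direction here. With the mean of its probe sets PSME3 was at -0.10.

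PSME4, which encodes PA200, an activator linked to histone turnover, was at 6.23, 5.71 and 5.92 in control and at 5.04, 5.88 and 5.68 in endosulfan arrays on its brightest probe set. These groups overlapped, at -0.42 ± 0.23 (SE). On a second probe set of nearly the same signal PSME4 was at 6.85, 5.82 and 6.32 in control and at 4.41, 5.50 and 5.04 in endosulfan arrays. Here every endosulfan array lay below every control array, at -1.35 ± 0.32 (SE) and an adjusted p (limma, Benjamini-Hochberg) of 0.215, the widest difference of the 112 probe sets. A further probe set was at -0.59 without overlap, and 5 of the 6 lay on the lower side. PSME1 and PSME2, the PA28 subunits that interferon induces, were both at 0.09, and the inhibitor PSMF1 was at -0.12. The probe sets of PSME1 ran from -0.10 to 0.09 and those of PSMF1 from -0.14 to 0.20.

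The assembly chaperones held the smallest unadjusted p of the 46 genes. PSMD9, which escorts ATPases into the base, was at 8.65, 8.77 and 8.62 in control and at 9.23, 9.11 and 9.18 in endosulfan arrays. All endosulfan arrays lay above all controls, and the spread within each group was small. The difference was 1.41-fold, with a log2 fold change of 0.49 ± 0.10 (SE), an unadjusted p of 0.0012 and a Benjamini-Hochberg adjusted p of 0.215 with limma. The second, dimmer probe set of PSMD9, with a mean signal of 7.04, was at -0.05 with overlapping groups. With the mean of its probe sets PSMD9 was at 0.22.

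The core of the antioxidant response element, TGACNNNGC, through which the NRF1 factor NFE2L1 raises proteasome genes when the protease is inhibited, was searched in the same windows. The motif is again in capitals. It is shown for PSMD9, the gene with the smallest unadjusted p, which holds it on both strands, and for a beta ring, a lid and an alpha ring gene in which TGACT opens it.

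PSMD9 (chr12:121888621-121888669, plus strand, motif on the opposite strand): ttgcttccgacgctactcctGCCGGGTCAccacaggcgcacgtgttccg
PSMD9 (chr12:121888668-121888716, plus strand): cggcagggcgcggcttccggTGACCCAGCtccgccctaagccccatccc
PSMB3 (chr17:38752617-38752665, plus strand): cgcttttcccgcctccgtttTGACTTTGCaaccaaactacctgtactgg
PSMD3 (chr17:39980750-39980798, plus strand): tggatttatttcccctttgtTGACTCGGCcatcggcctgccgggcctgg
PSMA4 (chr15:78540640-78540688, plus strand): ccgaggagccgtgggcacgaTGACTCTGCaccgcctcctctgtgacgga

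The letters were in 12 of the 49 windows, or 24.5%, and in 10.9% of all windows. The 12 genes that hold them comprised 6 on the higher and 6 on the lower side, with log2 fold changes from -0.59 in PSMD5 to 0.49 in PSMD9 and a median of 0.01. The median of the genes without them was 0.00. A CCAAT box was in 42.9% of the windows of proteasome genes and in 32% of all windows, and the genes with it had a median of 0.00.

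PSMG4, which helps to build the alpha ring, was at 9.39, 9.81 and 9.32 in control and at 9.96, 9.86 and 9.92 in endosulfan arrays. Control 2 lay just below endosulfan 2, so the groups came close without overlap. The log2 fold change was 0.40 ± 0.15 (SE), and all 6 probe sets of PSMG4 lay on the higher side, 4 of them without overlap. Once the poly-A level was a covariate in the fit, the log2 fold change of PSMG4 was 0.10 ± 0.18 (SE). In that fit PSMB10 was at 0.39 ± 0.22 (SE) and PSMD9 at 0.40 ± 0.16 (SE). The poly-A level was higher on average in the endosulfan arrays, so this fit cannot fully tell it apart from the exposure. PSMG3, the partner of PSMG4, was at 0.12, and the other alpha ring chaperones PSMG1 and PSMG2 were at -0.02 and -0.39.

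The base chaperones PSMD5 and PSMD10 lay opposite to PSMD9. PSMD5 was at 7.95, 7.34 and 7.33 in control and at 6.41, 7.57 and 6.86 in endosulfan arrays, at -0.59 ± 0.30 (SE). Its dimmer probe set was at 0.07. PSMD10, also known as gankyrin, was at 7.0034, 6.31 and 6.03 in control and at 5.50, 6.49 and 5.51 in endosulfan arrays, at -0.62 ± 0.33 (SE). In both, endosulfan 2 lay above control 2 and control 3.

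**Figure D3:**
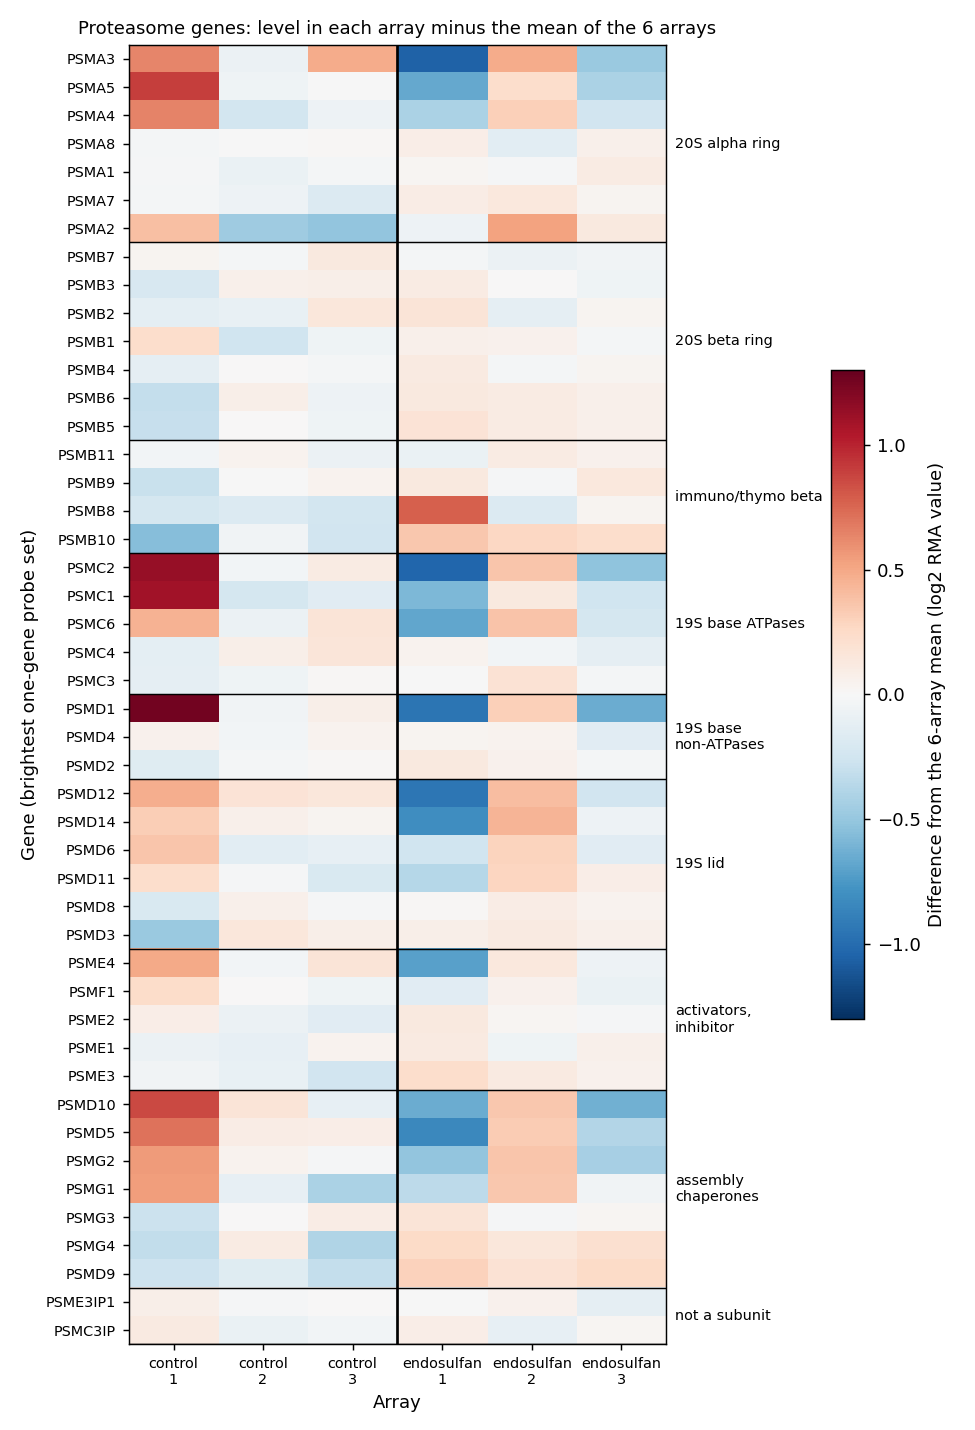
Level of each gene (rows, grouped by class) in each array (columns) minus its mean over the 6 arrays, in log2 RMA units, red above and blue below that mean. One set of genes, such as PSMD1, PSMC2, PSMA3 and PSMD5, is red in control 1 and endosulfan 2 and blue in endosulfan 1 and endosulfan 3, while the beta ring rows stay pale.

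Most genes with lower means shared an order of arrays. In 17 of the 46 genes endosulfan 1 was lower than endosulfan 2 by over 0.5 on the log2 scale, where 12.7% of all genes were. These 17 were counted after their values were seen and are a description. They comprised PSMA2, PSMA3, PSMA4 and PSMA5 of the alpha ring, PSMC1, PSMC2 and PSMC6 of the ATPases, PSMD1, the lid genes PSMD6, PSMD11, PSMD12 and PSMD14, PSME4, and the chaperones PSMD5, PSMD10, PSMG1 and PSMG2. None of the 7 constitutive beta ring genes and none of the 4 inducible or tissue-specific ones was among them. The 17 had mean signals up to 10.37, the constitutive beta ring genes of 11.53 to 12.64 and the 4 others of 3.74 to 9.17. The median absolute log2 fold change was 0.10 in the 16 proteasome genes with means above 10 and 0.32 in the other 30. Over all genes these medians were 0.19 and 0.16. The part of signal level in the contrast between classes was not tested. In all 17 control 1 lay above the mean of control 2 and control 3, by 0.27 to 1.28. In all 17 endosulfan 3 also lay below endosulfan 2, by 0.20 to 0.98, and endosulfan 2 lay above the mean of control 2 and control 3. The same order was common among all genes chosen this way: of 2310, control 1 lay above the other controls in 2198, endosulfan 3 lay below endosulfan 2 in 2250, endosulfan 2 lay above the mean of control 2 and control 3 in 1571, and 1966 were on the lower side.

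The log2 fold changes of these 17 genes ran from -0.86 to 0.39, with 16 on the lower side, and those of the other 29 from -0.12 to 0.56, with 24 on the higher side. Endosulfan 1 minus endosulfan 2 ran from -1.54 to -0.55 in the 17, which were chosen by this difference. It compares single arrays, while the log2 fold change compares group means, so the sizes of the 2 cannot be weighed against each other. A low endosulfan 1 also lowers the endosulfan mean, so the choice of the 17 favours the lower side. Across the 46 genes, control 1 minus the other controls and endosulfan 1 minus endosulfan 2, which share no array, had a Pearson correlation of -0.74 and a Spearman correlation of -0.73. Over all 18132 genes these were -0.60 and -0.53. Genes are not independent replicates, and all of them share the same 6 arrays.

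**Figure D4:**
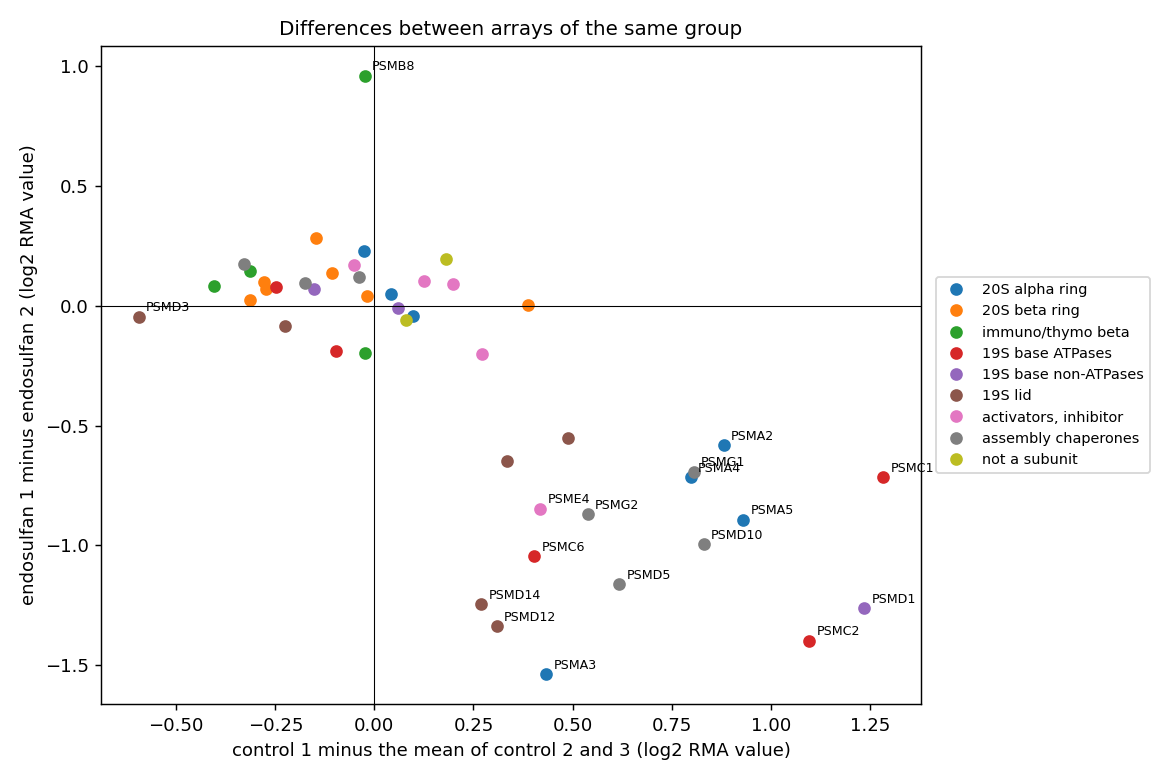
Each point is 1 of the 46 genes, coloured by class: control 1 minus the mean of control 2 and control 3 (x axis) against endosulfan 1 minus endosulfan 2 (y axis), both in log2 RMA units. The 17 genes with a y value under -0.5 lie apart at the lower right, and the constitutive beta ring genes cluster near 0 on the y axis.

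The size of the wide differences of these genes depended on single arrays. For the genes named next, the sign stayed negative whichever array was left out, and without endosulfan 2 the differences were wider. Endosulfan 2 was the highest endosulfan array in all 17, so the widening follows from that order. Without control 1 the log2 fold change was -0.45 for PSMD1, -0.43 for PSMC2, -0.34 for PSMD10 and -0.26 for PSMA5. Without endosulfan 1 it was -0.34 for PSMA3, -0.32 for PSMD5, -0.19 for PSMD12 and -0.17 for PSME4. In the fit with the poly-A level as a covariate it was -0.36 for PSMD1, -0.37 for PSMC2, -0.20 for PSMA3 and -0.24 for PSMA5.

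The count of lower genes rested on endosulfan 2. Without endosulfan 2, 11 of the 46 genes were lower at an unadjusted p below 0.05 with limma, against 14.1% of all genes in that setting. There were 4 on the higher side at that limit, against 9.16%. The 11 were PSMA3, PSMA5, PSMC2, PSMC6, PSMD1, PSMD5, PSMD10, PSMD12, PSMD14, PSME4 and PSMG2. All 11 belong to the 17 above, which the choice of the 17 favours. In those 17 endosulfan 2 was the highest endosulfan array, so leaving it out lowers their endosulfan mean in every case. The log2 fold changes of the 11 then ran from -1.23 to -0.57. None had an adjusted p below 0.05 in that setting, the lowest among them being 0.139 with limma and Benjamini-Hochberg adjustment. Without control 1 and endosulfan 1 together, 3 of the 46 lay higher and 0 lay lower at that same limit with limma, against 4.06% and 5.72% of all genes, and the median of the ATPases was 0.03 in place of -0.36. With array weights, which limma estimates from the spread, 6 of the 46 lay higher and 10 lower at an unadjusted p below 0.05, against 18.4% and 17.6% of all genes, and 5 genes passed after adjustment (PSMD9, PSMB10, PSMG4 and PSMA2 higher, PSMA3 lower), against 17.2%. These weights rested mostly on endosulfan 3 and control 3.

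The other genes of the pathway were taken from 3 lists. Of 16 proteasome regulators and partners measured, 0 passed with limma and Benjamini-Hochberg adjustment, and 1 was higher and 4 lower at an unadjusted p below 0.05, against 7.45% and 10.9% of all genes. ECPAS, a proteasome adaptor, was at -1.01 ± 0.31 (SE), the proteasome deubiquitinase USP14 at -0.81 ± 0.28 (SE), PITHD1 at -0.34 ± 0.13 (SE) and the stress factor NFE2L2 at -0.61 ± 0.25 (SE). The groups of ECPAS, PITHD1 and NFE2L2 did not overlap. In the list 0 genes were higher and 4 lower without overlap, against 12.4% and 10.2% of all genes. Of 15 ubiquitin and shuttle genes measured, 0 passed, and 1 was higher and 4 lower at that limit, against the same shares of all genes. The shuttle proteins UBQLN1 and RAD23B were at -1.40 ± 0.37 (SE) and -1.22 ± 0.32 (SE). The autophagy receptor SQSTM1 was at 0.40 ± 0.11 (SE) and the ubiquitin-activating enzyme UBA6 at -0.40 ± 0.15 (SE). The groups of these 4 genes did not overlap. In the list 2 genes were higher and 4 lower without overlap, against 12.4% and 10.2% of all genes.

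UBQLN1 was at 9.36, 8.22 and 8.57 in control and at 6.73, 7.998 and 7.23 in endosulfan arrays. It had the same order of arrays within each group as PSMC2, with control 1 highest and endosulfan 1 lowest, but here endosulfan 2 lay below all controls.

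Of 13 antigen presentation and interferon genes measured, 0 passed, and 4 were higher and 1 lower at an unadjusted p below 0.05, against 7.45% and 10.9% of all genes. Their median log2 fold change was 0.27, and 11 lay on the higher side, where 60.2% of all genes did. TAP2, a subunit of the peptide transporter that the immunoproteasome supplies, was at 6.75, 7.10 and 6.89 in control and at 7.52, 7.41 and 7.42 in endosulfan arrays, a log2 fold change of 0.54 ± 0.12 (SE). All endosulfan arrays lay above all controls, as for PSMB10. TAP1, whose mean signal of 4.52 lay below the array medians, was at 0.35 ± 0.11 (SE) without overlap. HLA-C was at 0.52 ± 0.20 (SE) with overlap. PDIA3, which loads peptide in the endoplasmic reticulum, was at -0.54 ± 0.16 (SE). In the list 4 genes were higher and 1 lower without overlap, against 12.4% and 10.2% of all genes.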

How the data were processed

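RNA of 6 one-colour Affymetrix arrays was compared, 3 per group, grouped by the labels' agent field. The authors deposited log2 values, made with Affymetrix Expression Console and RMA per the submitters' processing notes. Their versions were not given in the sources used here. Quantile normalization removes a shift shared by most transcripts. Of 49395 rows, 102 control probe sets were set aside. Of the 49293 tested, 44988 named 1 gene in the platform annotation, 1832 several and 2473 none. The fit was limma 3.58.1 (lmFit, eBayes) in R 4.3.3, two-sided, with Benjamini-Hochberg adjustment over all 49293 and a threshold of 0.05, checked on simulated data. A gene takes the values and adjusted p of its brightest probe set from this fit. No probe set was removed as dim.

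Printed in every array are the 6 catalytic subunits, the 12 genes with the smallest unadjusted p, and the widest difference of each class. From each pathway list the 4 genes with the smallest p are named by log2 fold change. The array values of UBQLN1, TAP2 and PSME4's second probe set were added after they were seen. Members, lists and alternatives were chosen with earlier results of these data known. The alternatives were the replicate block, further quantile normalization, median centring, a level filter, trended robust moderation, array weights, leaving out arrays, the spike-in level as a covariate and averaging each gene's probe sets. A planned comparison of protein sequences was not run. Python 3.11.15 and matplotlib 3.10.9 made the figures.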

Additional observations from a re-analysis of the deposited data

Results flagged for a closer look

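Control probe sets were left out of the fit, and only the poly-A level entered an alternative fit, as a covariate. The array's spike-in and background control probe sets were at a higher mean in the endosulfan than in the control arrays. The difference was 1.59 on the log2 scale for the poly-A spike-ins (6.62 ± 1.06 and 8.21 ± 0.60, SD, n = 3 each, two-sided exact permutation p = 0.2). It was 0.633 for the hybridisation controls (10.29 ± 0.29 and 10.93 ± 0.18, SD, n = 3 per group, p = 0.1 by an exact permutation test, which cannot go lower with 3 arrays against 3). It was 0.0519 for the 23 background probe sets (4.32 ± 0.05 and 4.37 ± 0.05, SD, n = 3 each, exact permutation p = 0.3).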

How the results depend on the processing

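No proteasome probe set or gene passed in any setting but array weights. There limma passed 17 of the 112 probe sets. No count was made over all probe sets, so whether 17 is more or fewer than elsewhere on the array cannot be judged. At gene level limma passed 5 of the 46 genes, or 10.9%, a smaller share than the 17.2% of all genes. Among them was 1 catalytic subunit, PSMB10 (0.47, adjusted p 0.0188), with PSMD9 at 0.0115, PSMG4 at 0.0313, PSMA3 at 0.0442 and PSMA2 at 0.0466. From the pathway lists, with 16, 15 and 13 genes measured, 14 genes passed, where 17.2% of all genes did. That setting also gave 10 lower genes at an unadjusted p below 0.05, against 17.6% of all genes. The base subunits that are not ATPases had a median of -0.14 in that setting. The weights were 5.43 for endosulfan 3 and 0.36 for control 1. When dimmer probe sets were left out, the median of the inducible and tissue-specific beta genes was 0.49 and that of the alpha ring -0.08. With the spike-in covariate 1 gene was higher and 0 lower at that limit, where the shares of all genes were 0.943% and 1.0%, against 7.45% and 10.9% without it, and the base subunits that are not ATPases were at 0.080. Without control 1 and endosulfan 1, the inducible and tissue-specific beta genes were at 0.11 and the ATPases at 0.027. When each gene's probe sets were averaged 1 gene was lower at that limit, against 9.08% of all genes. The activators were then at -0.0010, and PSMB7 at 0.017 and PSME3 at -0.10 changed sign. With 1 array left out, the counts ran from 2 to 4 higher and 0 to 11 lower, where the shares of all genes ran from 3.58% to 10.9% and from 6.4% to 14.1%, the inducible and tissue-specific beta median from 0.14 to 0.39 and the constitutive beta median from 0.044 to 0.12. The medians of the ATPases ran from -0.63 to -0.11, of the lid from -0.20 to 0.09, of the chaperones from -0.23 to 0.06, of the alpha ring from -0.03 to 0.08, of the other base subunits from -0.08 to 0.02 and of the activators from 0.04 to 0.10. The adjusted p of PSMB10 then ran from 0.0834 to 0.558 and that of PSMD9 from 0.0902 to 0.558. For the same replicate number in both groups, deviations from the group means correlated at -0.51, -0.40 and 0.05 for numbers 1, 2 and 3. Between different numbers the correlations ran from -0.38 (control 3 with endosulfan 2) to 0.57 (control 1 with endosulfan 2). Deviations within a group of 3 sum to 0, so these values cannot show whether cultures of the same number were handled together. With the replicate block 3 genes were higher and 0 lower at an unadjusted p below 0.05, against 3.9% and 7.35% of all genes, and 0 probe sets passed. Signal over background was not judged for each probe set, which limits PSMB8, PSMB9, PSMB11 and PSMA8 most. Their mean signals were 5.00, 4.65, 3.74 and 3.00. The 23 background probe sets had array means from 4.27 in control 1 to 4.43 in endosulfan 1. Single background probe sets were spread widely, in control 3 from 2.15 to 10.6.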

Other observations

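Across the 40 proteasome genes with a promoter window, the log2 fold change had a Pearson correlation of -0.46 and a Spearman correlation of -0.48 with the log10 length of the gene in the genome (RefSeq GRCh38.p14). Over the 14425 genes with both values it was -0.28 by either measure. With the GC content of the 250 upstream bases it was 0.07 and 0.00 over the 40 genes. These are descriptions across genes that share the same arrays.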
